A study of Mus musculus with 384 samples.

Results

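The 10 genes described here report signalling through the transcription factor NF-kB or through the antigen receptor, and they were followed cell by cell in regulatory T (Treg) cells of mouse ear skin. They are the NF-kB subunit genes Nfkb1, Nfkb2, Rel and Relb, the inhibitor genes Nfkbia and Tnfaip3, the nuclear receptor genes Nr4a1, Nr4a2 and Nr4a3, and the activation marker Cd69. The members are a list of symbols, with no threshold on any level. Each is among the 50556 symbols of the count matrix, and each is among the 30597 symbols seen in at least 1 well. Mice received 5% imiquimod, a Toll-like receptor agonist that inflames the skin, or vehicle on the ears, and Treg cells were sorted on day 3 into wells of 1 cell. Further wells received 10 cells or no cell. Skin came from 2 mice per treatment, and no label says which plate holds which mouse; genotype, strain and age are not named here. Cells entered when their well had 500 genes and 10000 counts or more. This kept 62 cells of vehicle plate 1, 58 of vehicle plate 2, 38 of imiquimod plate 1 and 44 of imiquimod plate 2, in all 120 vehicle and 82 imiquimod cells.

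NF-kB dimers wait in the cytoplasm bound to inhibitor proteins, chiefly the product of Nfkbia. Receptor signals lead to the destruction of that inhibitor, the dimers enter the nucleus, and Nfkbia and Tnfaip3 are among the genes they switch on, which closes a negative feedback loop. Rel and the Nfkb1 product p50 serve the fast canonical branch, and Relb with the Nfkb2 product p52 the slower noncanonical branch. In Treg cells, Rel is known for its part in the induction of Foxp3. The Nr4a genes and Cd69 are induced within hours of antigen receptor engagement, and Cd69 also holds T cells in tissues.

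The labelled cell type was checked against marker lists. At least 1 of 8 T cell genes had a count in 92.6% of kept cells and at least 1 of 7 Treg genes in 88.1%. By gene, Tcra and Tcrb were in 69.8% and 69.3% of cells, and also in 3 and 1 empty wells. Lck was in 31.7%, Cd2 in 31.2%, Cd3e and Cd4 in 23.8% each, and Cd3d and Cd3g in 12.4% each. The Treg genes ranged from 28.7% (Ctla4 and Tnfrsf4) to 59.4% (Ikzf2), with Foxp3 in 37.1%. Of 6 mast cell and basophil genes, 4 (Mcpt4, Fcer1a, Cma1 and Mcpt8) stayed at 0. The other two, Kit and Cpa3, brought that list to 272.6 and 115.6 CPM (counts scaled per library total) in the vehicle cells, against 4.50 and 6.42 CPM in the imiquimod cells. A macrophage or dendritic cell gene had a count in 32.3%, 60.3%, 28.9% and 50.0% of cells on vehicle plates 1 and 2 and imiquimod plates 1 and 2. Its 8 genes summed to 5.76 to 137.2 CPM; Adgre1 was in 29.7% and Mrc1 in 10.9% of all cells, and Csf1r and Cd68 in 0.990% and 1.98%. Kept cells held 47481 to 5946386 counts, with medians of 1040.0, 1503, 975 and 1093 genes in the plate order given above. Erythroid genes had a count in 3.23% and 24.1% of vehicle cells and in 55.3% and 45.5% of imiquimod cells. The summed level of the AP-1 and handling genes was 4917 and 3991 CPM in the vehicle cells and 10550 and 11160 CPM in the imiquimod cells. The part of these 4 lists in any result on treatment was not tested.

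The promoter windows in the RefSeq table (build GRCm38.p6, not the authors' mm39) place known control elements beside several of these genes. The table held 10 windows for 7 of the 10 genes, each searched over the 250 bases before the annotated start, on both strands. The kB motif, the 10-base element bound by NF-kB dimers and searched by its usual consensus, was found in 6 of the 10 windows, which belong to Nfkbia, Tnfaip3, Nfkb2 and Rel, against 3.9% of all 32851 windows. CGTCA, the core of the element bound by CREB-family factors, was found in 7 of the 10, which belong to Nr4a1, Nr4a2, Nr4a3, Tnfaip3, Nfkb2 and Rel, against 17.8% of all windows. AAAGGTCA, the element that Nr4a monomers bind, was in none of the 10 and in 1.34% of all windows. Matches are descriptions of letters and not of binding. Matches of the kB motif on opposite strands overlapped each other in Nfkb2 and Rel, and none overlapped CGTCA. The windows of 3 genes with a kB motif and 2 Nr4a genes without are shown 5′ to 3′ along the gene's strand, without bases that GENCODE M21 places in an exon. Capitals mark the kB motif, or CGTCA and its reverse complement.

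Nfkbia, chr12:55492648-55492897, minus strand: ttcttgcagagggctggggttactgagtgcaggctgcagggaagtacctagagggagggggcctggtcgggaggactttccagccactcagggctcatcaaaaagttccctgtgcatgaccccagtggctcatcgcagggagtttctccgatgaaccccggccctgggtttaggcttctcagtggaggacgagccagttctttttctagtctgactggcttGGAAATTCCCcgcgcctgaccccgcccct

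Tnfaip3, chr10:19015411-19015547, minus strand: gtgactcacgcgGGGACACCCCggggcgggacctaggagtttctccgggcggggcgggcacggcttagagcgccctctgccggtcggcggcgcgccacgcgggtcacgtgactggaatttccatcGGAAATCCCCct

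Rel, chr11:23770971-23771219, minus strand: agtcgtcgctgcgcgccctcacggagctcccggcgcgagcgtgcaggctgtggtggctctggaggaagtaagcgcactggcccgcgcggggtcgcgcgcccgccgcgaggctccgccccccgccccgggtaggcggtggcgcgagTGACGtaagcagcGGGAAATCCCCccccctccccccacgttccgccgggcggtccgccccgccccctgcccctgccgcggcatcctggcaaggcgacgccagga

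Nr4a1, chr15:101266596-101266845, plus strand: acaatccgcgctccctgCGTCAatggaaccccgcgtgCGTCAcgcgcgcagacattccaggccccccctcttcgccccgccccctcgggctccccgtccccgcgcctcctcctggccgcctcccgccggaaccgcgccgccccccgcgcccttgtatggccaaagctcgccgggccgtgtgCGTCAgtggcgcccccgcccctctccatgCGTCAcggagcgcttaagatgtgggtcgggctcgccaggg

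Nr4a3, chr4:48045055-48045152, plus strand: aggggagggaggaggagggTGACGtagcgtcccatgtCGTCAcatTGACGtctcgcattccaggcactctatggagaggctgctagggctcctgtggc

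In these stretches the kB match of Nfkbia began 29 bases before the annotated start, the nearer of those of Tnfaip3 12 bases before it, and that of Rel 92 bases before it. Nr4a1 held 4 CGTCA matches and the printed part of Nr4a3 held 3.

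Nfkbia, the inhibitor gene (chr12:55489410-55492647, GRCm38), had the highest detection of the 10 over all kept cells, though not on vehicle plate 1, where Nfkb1 was in more cells. It had a count in 56.5%, 58.6%, 44.7% and 50.0% of cells on vehicle plates 1 and 2 and imiquimod plates 1 and 2, or 53.5% of all cells (95% exact binomial interval 46.3 to 60.5). That interval takes cells as independent and leaves out the spread between plates. The median level of Nfkbia where detected was 1901 CPM, with 65 cells at 1000 CPM or more and a highest cell at 20695 CPM. Tnfaip3 (chr10:19000910-19015657), which encodes the ubiquitin-editing enzyme A20, was detected in 50.0%, 48.3%, 39.5% and 43.2% of cells, at a median of 551 CPM. Its median where detected was 966 CPM, 37.3 CPM, 56.8 CPM and 4447 CPM on the 4 plates. Imiquimod plate 2 therefore held few low detections, with 13 of its 19 positive cells at 1000 CPM or more, while imiquimod plate 1 had 2 of 15.

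Nfkb1 (chr3:135584655-135691547) encodes p105 and p50 and led the 4 subunit genes in detection on each plate. Its shares were 64.5% and 55.2% in vehicle and 28.9% and 34.1% in imiquimod. Rel (chr11:23736847-23770970), which encodes c-Rel, was detected in 46.8%, 48.3%, 21.1% and 29.5% of cells. Both genes were in fewer cells on each imiquimod plate than on either vehicle plate. Relb (chr7:19606217-19629438) had a count in 40.3%, 29.3%, 18.4% and 15.9% of cells. Nfkb2 (chr19:46304320-46312385), which encodes p100 and p52, had one in 35.5%, 25.9%, 2.63% and 15.9%, and on imiquimod plate 1 that was 1 cell. All 4 subunit genes thus had lower shares on both imiquimod plates, as did 54.1% of the 4899 genes with a count in at least 20 kept cells. Median levels where detected were 717 CPM for Nfkb1, 413 CPM for Rel, 60.1 CPM for Nfkb2 and 42.1 CPM for Relb, not corrected for transcript length.

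The 3 Nr4a genes differed in how often they were seen. Nr4a1 (chr15:101254269-101274795), the receptor Nur77 that is widely used as a reporter of antigen receptor signals, was detected in 46.8%, 43.1%, 28.9% and 36.4% of cells, with a median of 329.2 CPM and a highest cell at 20017 CPM. Nr4a3 (chr4:48045153-48086447), which encodes the related receptor NOR1, was found in 48.4%, 48.3%, 34.2% and 36.4%, at a median of 94.2 CPM. Nr4a2 (chr2:57106830-57124003), which encodes the third receptor, NURR1, was rare, in 14.5%, 12.1%, 7.89% and 11.4% of cells. Only 12 of its 24 positive cells reached 10 CPM and 5 reached 1000 CPM. Cd69 (chr6:129267325-129275436), the surface lectin of recently activated and tissue-held T cells, was either absent or well above the lowest levels. It was seen in 29.0%, 27.6%, 26.3% and 22.7% of cells, and 50 of the 54 positive cells were at or above 10 CPM, with a median of 1257 CPM.

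**Figure D1:**
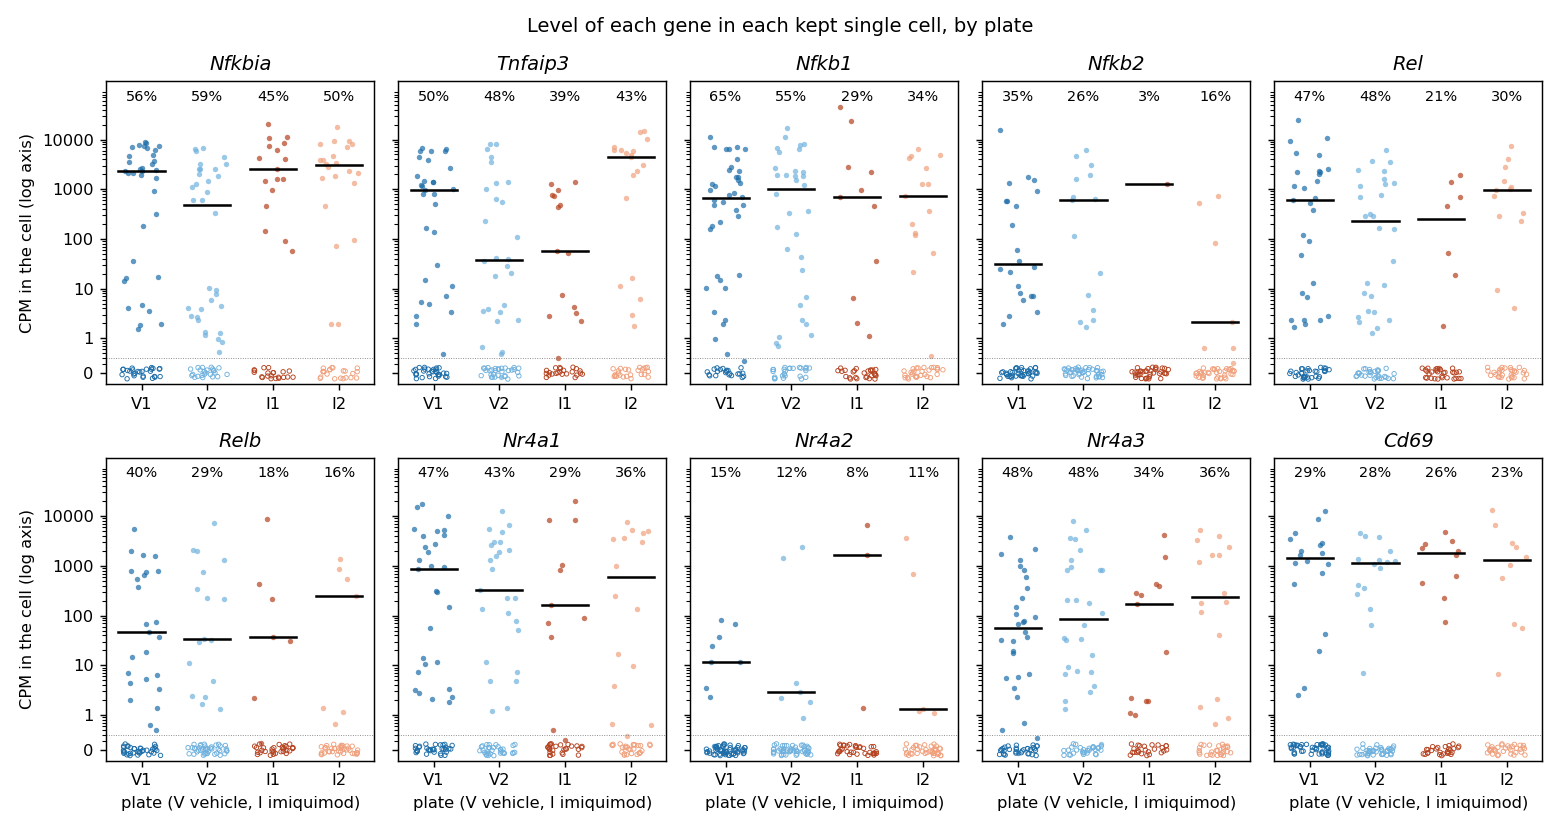
Level of each gene in each kept cell, in CPM on a log axis, by plate (V1 and V2 vehicle, I1 and I2 imiquimod); open circles are cells with no count, black bars the median of cells with a count, and percentages the share of cells with a count. Most genes spread from under 1 CPM to over 1000 CPM, whereas 50 of the 54 Cd69-positive cells lie at or above 10 CPM, and Nfkb2 shows 1 positive cell on imiquimod plate 1.

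Low detections were common in several of these genes. Under 10 CPM lay 27 of 87 positive cells for Nr4a3, 26 of 93 for Tnfaip3, 23 cells for Nfkbia, of which 15 were on vehicle plate 2, and 21 of 78 for Rel. In the 20 empty wells Tnfaip3, Nfkb2, Rel, Relb, Nr4a2 and Cd69 had no count. This allows a share of up to 15% of empty wells at the depth they had. Only 8 of the 20 held over 10000 counts, so the limit does not carry over to wells as deep as kept cells. Nfkbia had 4 counts in 2 empty wells and Nr4a3 had 1 count. Nfkb1 and Nr4a1 had 2113 and 1786 counts, nearly all in a single empty well of the library block of vehicle plate 2. Counts of reads without molecular identifiers are not independent molecules, and cells of 1 plate are not independent replicates. Intervals and limits of this kind therefore cover counting error only.

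Per kilobase of exon the order of levels changed. Over all kept cells the summed level was 1228 CPM per kb for Nfkbia, 375.4 for Nr4a1, 154.1 for Tnfaip3, 112.9 for Cd69, 110.9 for Nfkb1, 76.0 for Rel, 69.9 for Nr4a3, 54.6 for Nfkb2, 50.4 for Relb and 16.6 for Nr4a2. Nfkbia was highest of the 10 on each plate by this measure, at 1599, 773, 1434 and 1207 CPM per kb. Neighbours such as Cd69 and Nfkb1 changed places between plates: Cd69 stood at 145.8, 82.6, 124.6 and 105.2 CPM per kb and Nfkb1 at 108.1, 151.2, 145.8 and 49.5. Exon lengths came from GENCODE M21, and evenness of coverage along transcripts primed with oligo dT was not tested.

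A few cells carried much of each gene's reads. On imiquimod plate 1 a single cell at 45041 CPM held 52.0% of the Nfkb1 reads, another cell held 89.2% of the Relb reads, and the 1 positive cell held all of Nfkb2. Over the whole set, 80% of the Nfkbia reads were spread over 39 cells, those of Rel over 25, those of Nfkb1 over 24, those of Nfkb2 over 10 and those of Nr4a2 over 5. Sums over a plate therefore weigh a handful of cells heavily for the rarer genes.

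Every one of the 10 genes was detected in a smaller share of cells on both imiquimod plates than on both vehicle plates. The same held for 54.1% of the 4899 genes with a count in at least 20 kept cells, whose median difference was -6.77 percentage points, and the vehicle plates held 19 and 23 cells of 2000 genes or more against 4 and 5 for imiquimod. The differences were largest for the subunits. For Nfkb1 the share was 59.8% ± 6.61 in vehicle and 31.5% ± 3.64 in imiquimod (SD, n = 2 plates each), a difference of -28.3 points. Rel stood at 47.5% ± 1.06 and 25.3% ± 6.01, Nfkb2 at 30.7% ± 6.80 and 9.27% ± 9.39, and Relb at 34.8% ± 7.79 and 17.2% ± 1.78. Differences were smaller for Nr4a3 (-13.04 points), Nr4a1 (-12.3), Nfkbia (-10.2), Tnfaip3 (-7.81), Cd69 (-3.79) and Nr4a2 (-3.66). For each of the 10 genes the exact two-sided permutation p was 0.333, the smallest that 2 plates against 2 allow, so no single difference could pass a threshold of 0.05. Such p-values measure the spread between plates, which no label ties to separate mice.

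After each cell was thinned to 100000 counts, with 4 shallower cells left out, Nfkb1, Nfkb2, Rel, Relb, Nr4a1 and Nr4a3 still had non-overlapping plates, as did 54.9% of the genes tested. Nfkbia then differed by -0.177 points and Cd69 by 0.423 points, while Nfkb1 differed by -21.5 points. The same 6 genes had non-overlapping plates when only cells at 10 CPM or more were counted as positive, beside 52% of genes. At that mark the Nfkbia share was 5.33 points higher in imiquimod.

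**Figure D2:**
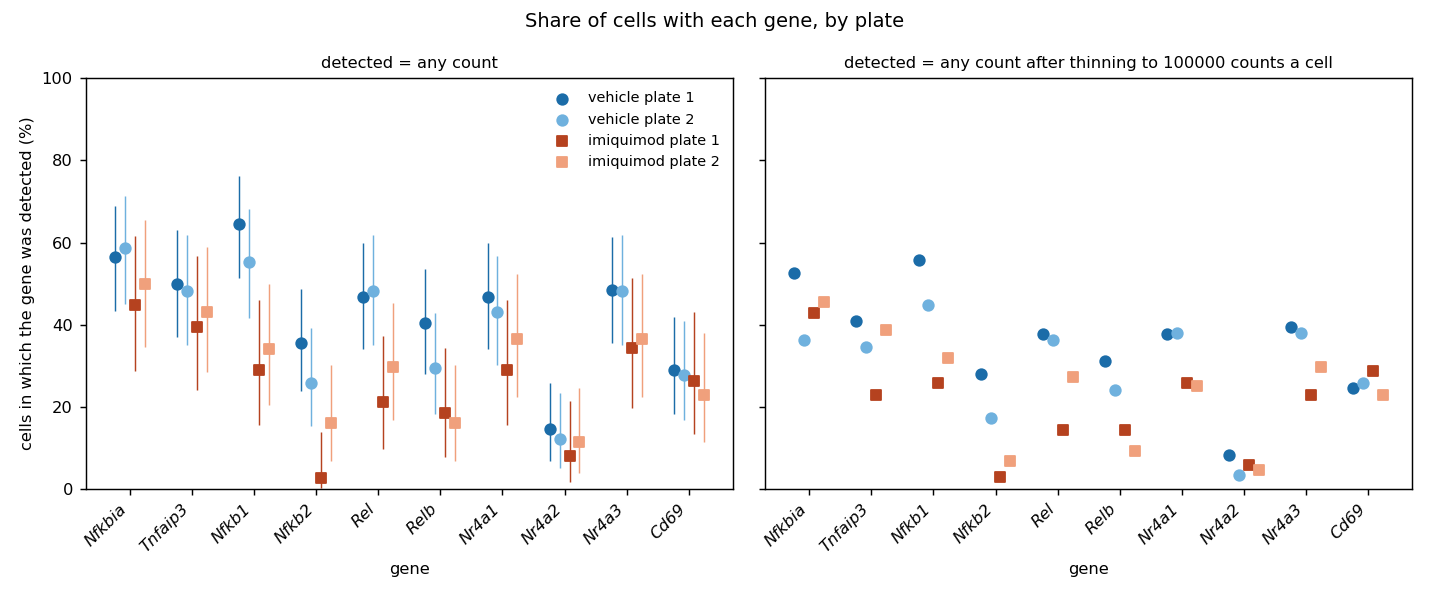
Share of kept cells with a count of each gene in percent, by plate, without thinning (left, with 95% exact binomial intervals of each plate's share) and after thinning each cell to 100000 counts (right). The 4 subunit genes, Nr4a1 and Nr4a3 keep both imiquimod plates (squares) below both vehicle plates (circles) in both panels, whereas Nfkbia, Tnfaip3, Nr4a2 and Cd69 do so in the left panel only.

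Since yield differed between plates, the shares were also read within classes of gene yield, a reading chosen after the data were seen. Among the 70 cells of 1000 to 2000 genes, 7 of the 10 genes had both imiquimod plates below both vehicle plates (Tnfaip3, Nfkb1, Nfkb2, Rel, Relb, Nr4a1 and Nr4a3), beside 20.4% of genes. Rel was in 60.0% and 58.8% of these cells after vehicle and in 26.7% and 30.4% after imiquimod, and Relb in 53.3% and 29.4% against 13.3% and 8.70%. For Nr4a1 the plates were separated narrowly, by 52.9% on vehicle plate 2 and 52.2% on imiquimod plate 2. Among the 81 cells of 500 to 1000 genes the count was 4 of 10, beside 22.2% of genes. Among the 51 cells of 2000 genes or more it was 1 of 10, beside 33.2% of genes, and there the imiquimod plates held only 4 and 5 cells. Rel went the other way in that class, with 57.9% and 73.9% against 75.0% and 80.0%. Nfkb1 was the member with this pattern in all 3 classes, which 2.59% of genes shared. Its shares in the class of highest yield were 84.2% and 73.9% against 50.0% and 40.0%, in the middle class 73.3% and 52.9% against 33.3% and 34.8%, and in the lowest class 46.4% and 33.3% against 21.1% and 31.2%.

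The summed reads of the same cells were also tested. In edgeR's quasi-likelihood test of imiquimod against vehicle on plate sums, 0 of the 10 genes passed an adjusted p of 0.05, as did 0% of the 14462 genes tested, the smallest Benjamini-Hochberg adjusted p being 0.42. On simulated data with the dispersion of these sums, this test recovered 0 of 100 genes changed 16-fold. An absence of calls therefore could not show that levels were alike. At an unadjusted p under 0.05 stood 1669 genes, and DESeq2 called 3740 genes (25.9%) but none of the 10. Leaving out imiquimod plate 1 or imiquimod plate 2, which left a lone plate assumed to vary like the others, gave calls for 1.02% and 3.91% of genes in edgeR, again with none of the 10. Nfkbia stood at 2357 and 973 TMM-normalised CPM in vehicle and at 3324 and 2065 in imiquimod, a log2 fold change of 0.69 ± 0.55 (SE; adjusted p = 0.683). Nfkb1 stood at 1194 and 1427 against 2533 and 634.2, where imiquimod plate 1 was the highest and imiquimod plate 2 the lowest of the 4 (log2 fold change 0.27 ± 0.69). Without imiquimod plate 1, the plate with the cell at 45041 CPM, the log2 fold change of Nfkb1 was -0.94. Tnfaip3 stood at 1184 and 466 against 279.7 and 2226, so that both imiquimod plates lay outside the vehicle range, on opposite sides of it. Without imiquimod plate 2 its log2 fold change moved from 0.60 to -1.47.

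Plates did not overlap for 4 of the 10 genes. Nfkb2, at 360.4 and 347.8 against 136.1 and 32.7, and Rel, at 776 and 498 against 407 and 464, were lower on both imiquimod plates, beside 31.1% of all genes tested. Nr4a2, at 2.52 and 63.3 against 152.4 and 91.9, and Nr4a3, at 259.7 and 368.7 against 421 and 609.9, were higher on both, beside 13.7%. Their log2 fold changes were -2.07 ± 1.49 for Nfkb2, -0.55 ± 0.91 for Rel, 1.89 ± 2.49 for Nr4a2 and 0.71 ± 1.03 for Nr4a3, with adjusted p between 0.636 and 0.888 in edgeR. Relb, Nr4a1 and Cd69 overlapped, with log2 fold changes of -0.41 ± 1.49, 0.38 ± 0.62 and 0.56 ± 0.79. Over all genes tested the median log2 fold change was -0.26 with TMM. With size factors from DESeq2 it was 0.11, and Relb then stood at 0.16. Nr4a3 was thus in a smaller share of imiquimod cells while its plate sums were higher there, and the thinned sums gave it a log2 fold change of -0.21.

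Genes around the pathway were read from lists, each described by its counts. No gene tested in the 6 lists passed edgeR's adjusted threshold in either direction, and none of the 14462 genes tested did. Of the other NF-kB genes (Rela, Nfkbib, Nfkbie, Nfkbid, Nfkbiz and Bcl3), 4 of 6 had positive fold changes. Rela, the partner subunit p65 of the canonical dimer, was in 50.0%, 37.9%, 60.5% and 63.6% of cells on the 4 plates, above both vehicle plates on both imiquimod plates, a direction seen in 4.49% of genes. It was the 1 gene of the 6 with that direction and was singled out after its values were seen, while Nfkbib, Nfkbie and Nfkbiz were in fewer cells on both imiquimod plates. In plate sums Nfkbid was the 1 gene of the 6 higher on both imiquimod plates, beside 13.7% of all genes tested, and Rela was not. The share of Rela was not read after thinning or at 10 CPM. Nfkbid, an atypical inhibitor that acts in the nucleus, was in 24.2%, 24.1%, 23.7% and 25.0% of cells, with sums of 363.5 and 242.7 against 919 and 654 TMM-normalised CPM. Nfkbiz, another nuclear inhibitor, stood at 956 and 398 against 33.0 and 606, and Nfkbib at 345.01 and 159.5 against 644 and 83.6. Among 17 genes of the IKK complex and its adaptors, 12 had positive fold changes, and 11 were detected in fewer cells on both imiquimod plates, a share near the 54.1% of all genes. That 54.1% covers genes with a count in at least 20 kept cells, which some of the 17 did not reach. Traf1, an adaptor induced by NF-kB, stood at 1865 and 1479 against 701 and 484 TMM-normalised CPM (log2 fold change -1.50 ± 0.66, adjusted p = 0.422 in edgeR). Malt1, the protease of the complex that links the antigen receptor to NF-kB, and Tab2, an adaptor of the kinase TAK1, had log2 fold changes of 0.83 ± 1.08 and 1.61 ± 1.33.

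Of 6 tested genes that restrain NF-kB, 4 had positive fold changes. N4bp1 stood at 0.78 ± 0.90, Tnip1, a partner of A20, at -1.29 ± 1.26 and Tnip2 at 0.50 ± 1.54 on the log2 scale. Of 14 target genes 6 were positive. Il2ra, the high-affinity interleukin-2 receptor chain, stood at 2621 and 1887 against 657 and 978 TMM-normalised CPM, and Tnfrsf4, the costimulatory receptor OX40, at 797 and 669 against 3684 and 944. Tnfrsf9, the costimulatory receptor 4-1BB, was at 936 and 772 against 2302 and 835. The antigen receptor response list had 10 of 12 positive with a median log2 fold change of 1.15, beside -0.26 over all genes, among them Egr1 at 1.45 ± 1.118, while Ctla4 stood at -0.10 ± 0.87. In plate sums 2 of the 12 were higher on both imiquimod plates, beside 13.7% of all genes tested. None was lower on both, beside 31.1%. In shares of cells, 7 of the 12 genes were lower on both imiquimod plates, a count near the 54.1% of all genes. None was higher on both, beside 4.49% of all genes. The AP-1 and handling list, whose genes respond to stimulation and also to tissue digestion, had 11 of 11 positive with a median of 1.64, beside a median of -0.26 over all genes, and 10 of them were higher on both imiquimod plates, beside 13.7% of all genes. By detection, 4 of the 12 listed genes were in fewer cells on both imiquimod plates, beside 54.1% of all genes, and 4 in more, beside 4.49%. Those background shares cover genes with a count in at least 20 kept cells, which some genes of this list and of the antigen receptor list did not reach. Hspa1b, 1 of the 4 in more cells, was in 1.49% of all kept cells, and Hspa1a was in none. Fos stood at 696 and 298.2 against 4055 and 2854, Dusp1 at 1140.4 and 695 against 5343 and 3563, and Junb at 1616 and 1188 against 2899.6 and 2896 TMM-normalised CPM.

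Cells held between 0 and 10 of the 10 genes. The mean number was 4.32 and 3.97 in vehicle and 2.53 and 2.95 in imiquimod. None of the genes was seen in 16 cells, and at least 7 were seen in 36 cells, of which 20 and 11 were vehicle and 2 and 3 imiquimod cells of the respective plates. The number followed gene yield: the mean was 2.02 in cells of 500 to 1000 genes, 3.79 in cells of 1000 to 2000 and 5.78 in cells of 2000 or more. In the middle class the plates averaged 5.07 and 4.12 for vehicle and 2.73 and 3.39 for imiquimod.

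**Figure D3:**
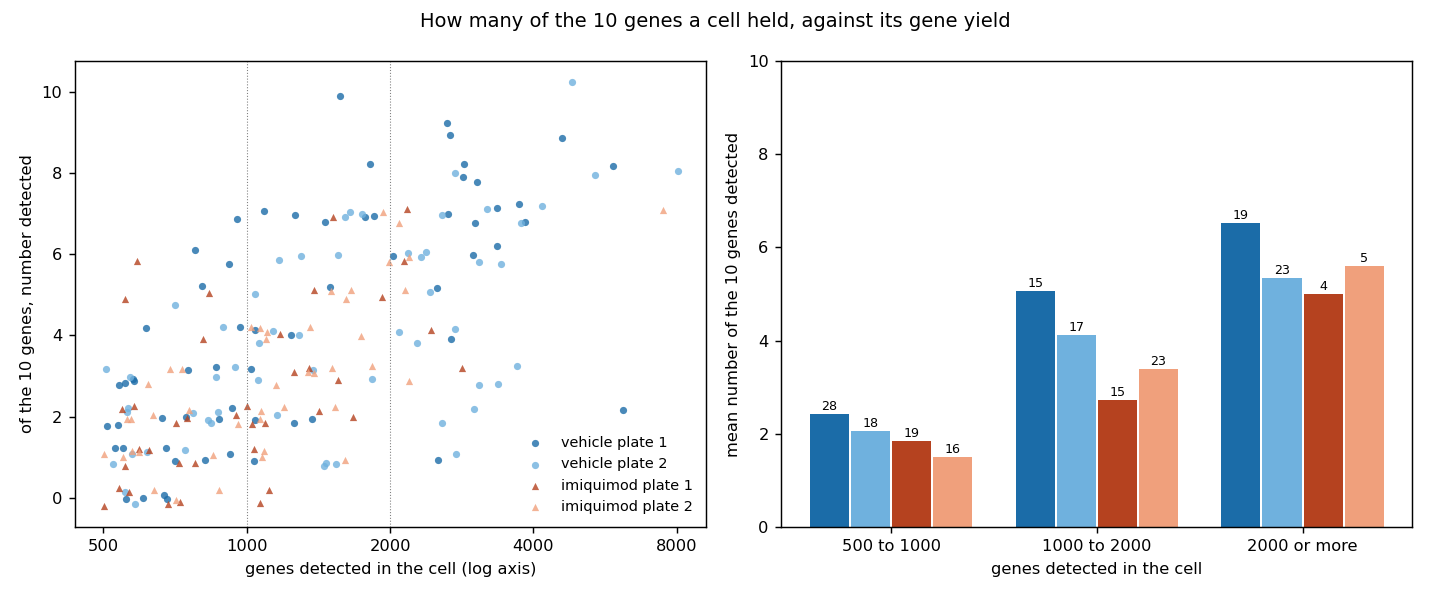
Number of the 10 genes with a count in each kept cell against the genes detected in that cell on a log axis (left, points moved slightly up or down to separate them, dotted lines at 1000 and 2000 genes), and the mean number per plate in 3 classes of yield (right, bars from 0, cells per bar above it). The number rises with yield on every plate, and in the class of 1000 to 2000 genes the vehicle bars stand at 5.07 and 4.12 and the imiquimod bars at 2.73 and 3.39.

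Co-detection was read for all 45 pairs as the number of cells with both genes over the number that the shares of each plate would give if the genes were placed independently. The ratio was above 1 for 43 pairs, and for 84% of all gene pairs. The median ratio of the 45 pairs was 1.31, against 1.38 for all pairs. Read within cells above and below each plate's median yield, 40 pairs stayed above 1, against 66.7% of all pairs, with medians of 1.13 and 1.117. By median ratio the 10 genes as a set thus stood near other genes, while within yield classes a larger part of their pairs was above 1. All pairs were not matched to the 10 genes in share of cells, which limits how high a ratio can be. Ratios differed between the pairs.

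Cells with Cd69 often held the inhibitor genes. Of 54 cells with Cd69, 43 also had Nfkbia (79.6%), against 29.0 expected from the shares, a ratio of 1.48 that fell to 1.17 within yield classes. Tnfaip3 and Cd69 shared 40 cells against 25.0 expected (1.60, and 1.25 within yield classes), and Nr4a1 and Cd69 shared 33 against 21.8 (1.51, and 1.21). These 3 pairs were above 1 on 4 of 4 plates, as were other pairs such as Nfkbia with Rel, Nfkb1 with Nr4a3 and Nr4a3 with Cd69. How many pairs of all genes were so was not counted. At 10 CPM or more within yield classes the ratios of the 3 pairs with Cd69 named first were 1.29, 1.47 and 1.33. At that mark 80.1% of pairs of all genes were above 1, with a median ratio of 1.235, and the 45 pairs of members had a median of 1.20. Nfkbia and Nr4a1 shared 60 cells against 43.9 expected, with a ratio of 1.18 within yield classes.

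Tnfaip3 was common in cells with the noncanonical genes, and also in those with Cd69 (74.1%) or Rel (66.7%), beside 55.1% of those with Nfkb1. Tnfaip3 was found in 77.8% of the Nfkb2-positive cells and in 71.4% of the Relb-positive cells. Within yield classes the ratios were 1.35 and 1.34, and Nfkb2 with Relb, the partners of 1 dimer, had 1.39 from 23 shared cells, though its ratio within plate was above 1 on 2 of 4 plates only. At 10 CPM or more the last ratio was 1.097, from 9 cells. The highest ratio within yield classes, 1.69 for Nfkb2 with Nr4a2, rested on 12 cells and was 0.85 at 10 CPM or more. Nr4a2 was the exception among the Nr4a genes, with ratios of 0.79 with Nfkbia and 0.76 with Nfkb1 within yield classes, from 12 and 10 shared cells. It was found with Nr4a3 in 14 cells, a ratio of 1.16, and in 8 cells at 10 CPM or more, where the ratio was 2.03. Nfkb1 with Cd69 had 0.89 within yield classes from 28 shared cells. Its ratio within plate was 1.38 and 1.13 in vehicle and 0.345 and 0.293 in imiquimod, where each plate had 1 shared cell.

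**Figure D4:**
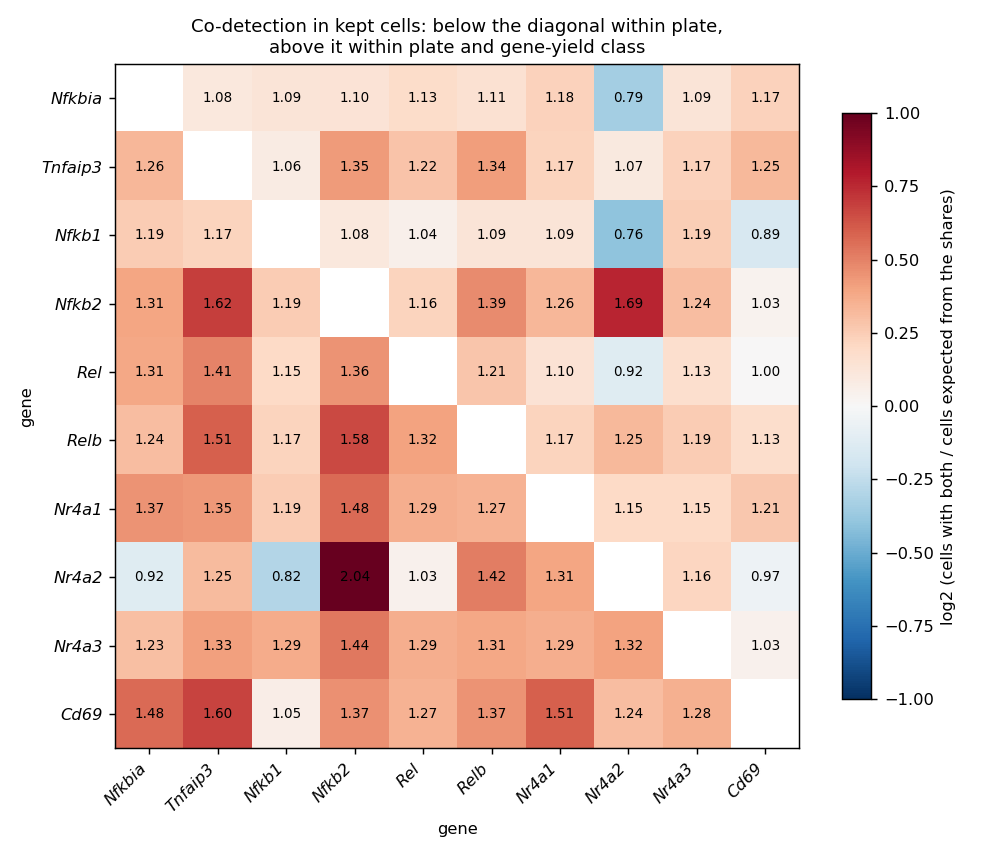
Ratio of cells with both genes to the number expected from each gene's share, for all 45 pairs in the kept cells; below the diagonal the expectation is taken within plate and above it within plate and within cells above or below the plate's median gene yield, with colour on a log2 scale. Nearly all pairs are above 1 below the diagonal, ratios shrink above it, and pairs of Nr4a2 with Nfkbia (0.79) and Nfkb1 (0.76) lie under 1.

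Levels across cells did not rank the pairs as co-detection did. Averaged over the 4 plates, Spearman's rho of log2(CPM + 1) was 0.36 for Nfkbia with Cd69, 0.33 for Tnfaip3 with Cd69 and 0.33 for Nfkbia with Nr4a1, which were among the highest values. For Nfkb2 it was 0.15 with Nr4a2 and 0.11 with Relb, pairs with higher co-detection ratios than these within yield classes. On imiquimod plate 1 every rho of Nfkb2 rested on 1 positive cell. The values are taken in cells that share library preparation within a plate and differ in depth. The genes of most similar pattern to Nr4a1 among 2800 candidates were Dusp1 (0.41), Hspa8 (0.40) and Zfp36 (0.39), where the median candidate had 0.11. For Cd69 they were Tuba1a, Ier2 and Ptma (0.41, 0.41 and 0.40), and for Nfkbia Cd82, Sqstm1 and Cd3e (0.41 each). Nfkb1 was closest to Rora, Arhgap31 and Wnk1 (0.39, 0.35 and 0.35) and Tnfaip3 to H2-D1, Sat1 and Selplg (0.38, 0.36 and 0.35). Rel was closest to Eif4a-ps4, Zc3hav1 and Glud1, Relb to Ino80dos, Ociad1 and Rhoa, Nfkb2 to Psd, Ifngr1 and Brd1, Nr4a2 to Nrbp1, B3galt1 and Scamp2, and Nr4a3 to Atp2b4, Rbck1 and Ell2, at rho of 0.31 to 0.50. Eif4a-ps4 is a pseudogene whose reads cannot be told from those of its parent gene where counting split them.

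Foxp3, the transcription factor that defines Treg cells, had a count in 75 kept cells, 24, 23, 14 and 14 on the 4 plates, beside 38, 35, 24 and 30 without. The cells with Foxp3 had a median of 1993 genes against 945 in those without. Nfkbia was in 72.9% ± 14.5 of cells with Foxp3 and in 40.1% ± 3.44 of cells without (SD, n = 4 plates), and Rel in 50.6% ± 18.5 and 28.2% ± 12.7. Both were higher in cells with Foxp3 on 4 of 4 plates, with an exact sign-flip p of 0.125, the smallest that 4 plates allow. No other of the 10 genes was, and 32.9% of all genes were. Relb was in 25.9% ± 10.2 and 26.0% ± 12.1 of the classes. Among cells of 1000 genes or more, 0 of the 10 genes were higher in cells with Foxp3 on 4 of 4 plates, while the mean difference was 17.8 points for Nfkbia and 15.3 points for Rel, against 32.8 and 22.4 points in all kept cells.

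Wells of 10 cells, 4 in each block of libraries, tested the same genes in small pools. Such a well carries no treatment label and enters no comparison between treatments, and in a pool fewer positive cells and less RNA per cell cannot be told apart. Nfkbia, Nfkb2, Nr4a1 and Nr4a3 had a count in 16 of 16 wells, Tnfaip3, Nfkb1 and Rel in 15, Cd69 in 14, Relb in 12 and Nr4a2 in 5. If each pool drew 10 cells with the single-cell shares, at least 1 positive cell would be present in 99.9% of pools for Nfkb1, 96.1% for Relb and 71.8% for Nr4a2. Counting only cells at 10 CPM or more gave 86.8% for Relb and 45.8% for Nr4a2, which reached 10 CPM in 11 and 3 of the 16 pools. Pools spread less than single cells, with coefficients of variation over wells of 0.66 for Nfkbia and 0.87 for Nfkb1 against 1.94 and 3.28 over single cells.

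Pools of different blocks stood apart for some genes, and for how many of all genes they did so was not counted. Nfkbia had 1901, 2216, 3479 and 4082 CPM in the 4 pools of block 1, the block of vehicle plate 1, and 615, 1198, 1212 and 1261 in block 2, that of vehicle plate 2. It had 3367, 3536, 6153 and 6879 CPM in block 3, that of imiquimod plate 1, and 444, 1996, 2646 and 3479 in block 4, that of imiquimod plate 2. The pools of block 2 did not overlap those of blocks 1 and 3. Tnfaip3 had 17.0 to 221.2 CPM in block 3, where its single cells were also lowest, and 0, 1058, 1544 and 3406 in block 4. Nfkb1 had 688 to 4118 and 982 to 2945 CPM in blocks 1 and 2, and 37.5 to 1432 and 0 to 1412 in blocks 3 and 4. In the single-cell sums block 3 was the highest for Nfkb1, and in the pools it was not. The order of the 4 plates was the same in pools and single-cell sums for Nfkbia and Rel, and for 7.13% of all genes.

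**Figure D5:**
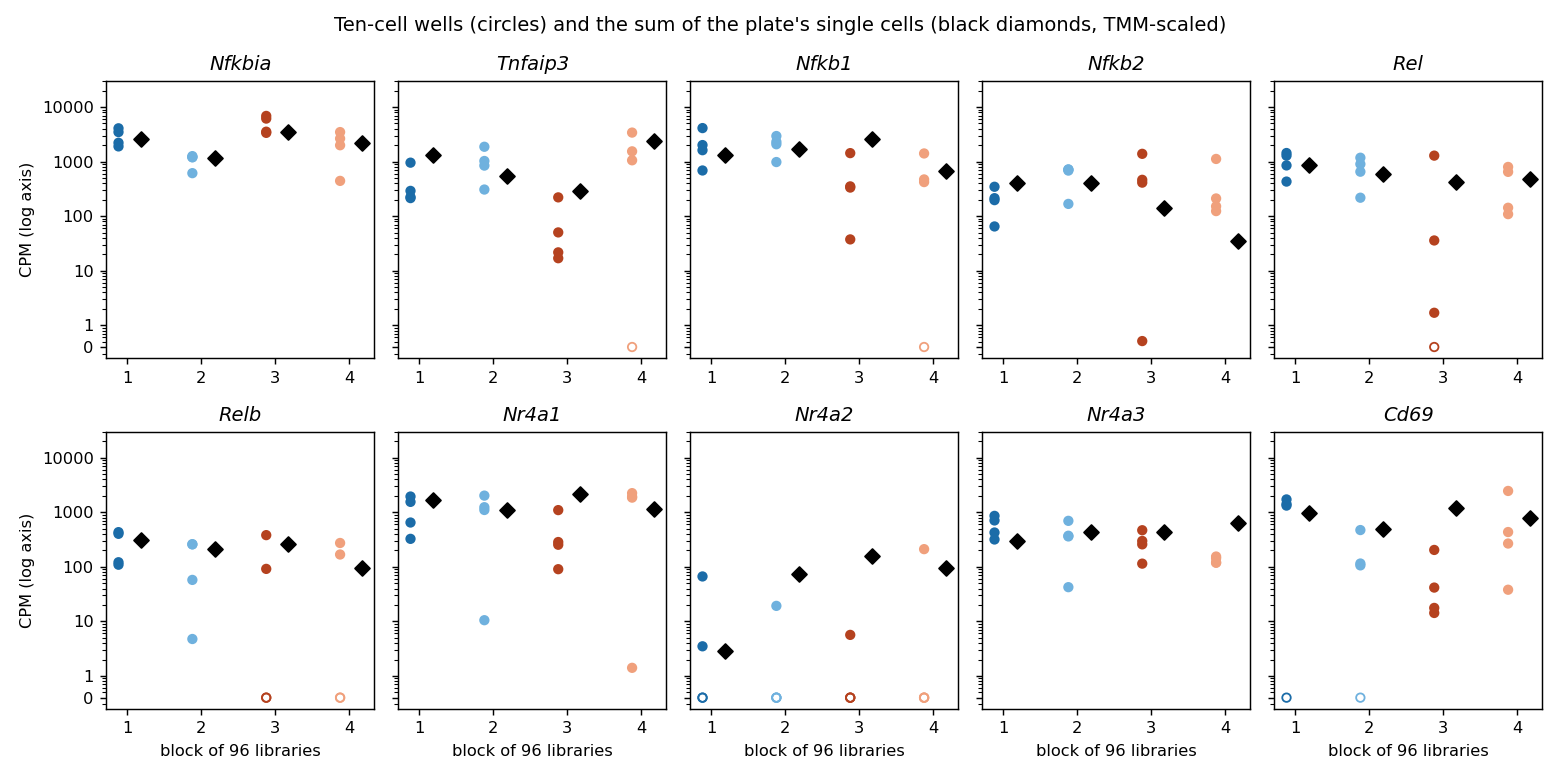
CPM of each gene in the 10-cell wells (circles coloured by block, open at 0) and in the sum of the kept single cells of the same block of libraries (black diamonds, TMM-scaled), on a log axis, by block 1 to 4 (blocks 1 and 2 hold the vehicle plates, 3 and 4 the imiquimod plates; 10-cell wells carry no treatment label). The blocks have the same order in pools and diamonds for Nfkbia, whereas the Nfkb1 diamond of block 3 lies above its 4 pools and the Nfkb2 diamond of block 4 below its 4 pools.

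Summed per block and tested with the block as a term, single-cell wells and 10-cell wells differed in 0% of 11452 genes and in 0 of the 10 in edgeR. On simulated data this test recovered 11 of 100 genes changed 16-fold, so it could miss most large differences. An unadjusted p under 0.05 was reached by 1.98% of genes, and DESeq2 called 972 genes (8.49%), none among the 10. Limma on mean log2(CPM + 1) called 4014 genes, all lower in single cells and 9 of the 10 among them, where the zeros of single cells enter the mean by construction. Cd69 was the only member with a higher single-cell sum on 4 of 4 plates, beside 7.69% of genes, and none of the 10 was lower there on 4 of 4, beside 3.83%. It stood at 975, 499, 1215 and 769 TMM-normalised CPM in single cells against 905, 184.2, 126.7 and 756 in pools, a log2 difference of 1.15 ± 0.64 (SE; adjusted p = 1 in edgeR). Nfkbia differed by -0.19 ± 0.25, Nr4a1 by 0.69 ± 0.42, Tnfaip3 by 0.73 ± 0.51 and Nfkb2 by -1.30 ± 0.97.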

How the data were processed

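Single Treg cells, pools of 10 cells and empty wells of 4 plates were sequenced after oligo dT priming, template switching and cDNA amplification (24 PCR cycles, then 12 for the library, per the labels' protocols). The authors deposited 1 table of raw read counts per gene and well, without molecular identifiers, so amplification can inflate single transcripts. Per the submitters' processing notes, Trimmomatic 0.39, STAR 2.7.3a, SAMtools 1.12 and the build mm39 were used; for the counting tool, its annotation and its use of strand the sources used here give nothing. Reads of overlapping or antisense genes may therefore be shared.

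Single-cell wells with at least 500 genes and 10000 counts were kept, at 47481 to 5946386 counts each; no doublet caller was run. A total of 5 wells had no count, and no well with counts repeated another's values. Treatment was taken from the labels, and the plate (2 per treatment) was the replicate. Kept cells were summed per plate and tested with edgeR 4.0.16 (quasi-likelihood, TMM, filterByExpr, Benjamini-Hochberg threshold 0.05), and single-cell sums against 10-cell sums with the plate as a block. DESeq2 1.42.0, limma 3.58.1 (on mean log2(CPM + 1), pseudocount 1), another normalization, no filter, other cell filters, thinning to 100000 counts, the highest cell left out, cell numbers in place of reads and plates left out in turn were the alternatives. Shares of cells were compared by exact permutation tests over plates (scipy 1.17.1). Co-detection expectations were the products of shares within plate, or within plate and cells above or below its median gene yield.

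The members and lists were chosen with earlier results of these data known. Beside the 10 members, the 3 genes of highest mean TMM-normalised CPM were named from each list with no gene past the test, and for each member the 3 genes of highest mean rho over plates. Rela, Nfkbie, Bcl3, Kit, Cpa3, Adgre1, Mrc1, Csf1r, Cd68, Hspa1a and Hspa1b were named after their values were seen. The same holds for the T cell and Treg marker genes given singly. On simulated data with the dispersion of these sums, edgeR recovered 0 of 100 genes changed 16-fold between treatments among 14462, and 11 of 100 between single-cell and 10-cell sums among 11452.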

Additional observations from a re-analysis of the deposited data

Results flagged for a closer look

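Of 40 sets of 4 pools (10 genes in 4 library blocks), 12 held a 10-cell well far from its 3 neighbours, where chance gives about 1 in 20 for normally distributed values. The CPM of sparse genes are skewed, and in 3 of the sets the other pools were at 0, so this count is no measure of excess. Blocks 1 and 2 are those of the vehicle plates and blocks 3 and 4 those of the imiquimod plates. The lowest pool of block 2 had 615 CPM of Nfkbia, with the next at 1198, and 167.9 CPM of Nfkb2, with the next at 685. The highest Tnfaip3 pool stood at 957 CPM in block 1 (next 290.9) and at 221.2 CPM in block 3 (next 50.4). For Nfkb2 the highest pool of block 4 had 1119 CPM (next 211.3), and for Rel that of block 3 had 1288 CPM (next 35.9). Cd69 had single high pools in block 3 (203.9 CPM, next 41.6) and block 4 (2459 CPM, next 434). Nr4a2 had 1 high pool in every block, at 66.6 CPM in block 1 (next 3.49) and at 19.2, 5.66 and 210.9 CPM in blocks 2, 3 and 4, where the other pools had no count.

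An empty well of block 2 held 2111 counts of Nfkb1 and 1786 of Nr4a1, with 1527760 counts and 885 genes in all. It was the 1 of 20 empty wells that would have passed the filter for kept cells. It had no count of Cd3e, Cd4, Foxp3, Il2ra or Ptprc and 13307 counts of Malat1.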

How the results depend on the processing

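No paired analysis was possible because the plates are nested in treatment and the labels tie no vehicle plate to an imiquimod plate. The count of genes called between treatments, 0 in edgeR with TMM, was 3740 with DESeq2, 9 without an expression filter, 17 with numbers of cells in place of reads and 0 to 794 with 1 plate left out. Between single-cell and 10-cell sums it was 972 with DESeq2, 3 without the filter, 5 with each gene's highest cell left out, 4014 with limma on mean logs and 0 with any 1 plate left out. A mean of logs over single cells includes their zeros, which by construction lowers it against pools. The 10 members with lower shares on both imiquimod plates became 6 after thinning, 6 at 10 CPM and 8 in cells of 1000 genes or more. Cd69 stood at 0.423 points (thinned) and Nfkbia at 5.33 points (10 CPM). They stayed 10 with any 1 plate left out. The 2 members higher in cells with Foxp3 on every plate became 0 at 1000 genes, 8 in all wells of 10000 counts, 5 after thinning, 4 at 10 CPM, and 2 to 7 with 1 plate left out. There Nr4a2 stood at -3.16 points (1000 genes), -0.0799 (thinned) and -2.49 to 4.25 (1 plate left out), and Relb at 6.21 (all wells), 6.61 (10 CPM) and -1.71 to 1.41 (1 plate left out).

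Treatment log2 fold changes that turned sign under limma were those of Tnfaip3 (-0.20), Nfkb1 (-2.17), Nr4a1 (-1.09), Nr4a3 (-0.64) and Cd69 (-0.26). At 1000 genes Nfkb1 stood at -0.12 and Cd69 at -0.046, with numbers of cells Nfkb1 at -0.44, after thinning Nr4a1 at -0.15 and Nr4a3 at -0.21, and with DESeq2 or its size factors Relb at 0.16. With 1 plate left out Tnfaip3 ranged from -1.47 to 1.52, Nfkb1 from -0.94 to 1.06, Relb from -1.24 to 0.25 and Nr4a1 from -0.062 to 0.88. Between single-cell and 10-cell sums Nfkbia stood at 0.058 without the filter, at 1.097 without its highest cells and at -0.37 to 0.20 with 1 plate left out, Nfkb1 at -0.087 to 0.72 and Nr4a3 at -0.048 to 1.06. Limma gave Tnfaip3 -4.55, Nfkb1 -5.43, Rel -5.16, Relb -3.82, Nr4a1 -5.76, Nr4a2 -0.87, Nr4a3 -5.37 and Cd69 -4.28 there. Beyond the constructions named, the cause was not tested. With 2 plates per treatment and read counts of few cells, fold changes of the rarer genes were not resolved at this depth.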

Other observations

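In the 10-cell wells a median of 9 of the 10 genes had a count, with a lowest of 6 and a highest of 10. Coefficients of variation over the 16 wells were 0.709 for Nr4a3, 0.782 for Nr4a1, 1.41 for Cd69 and 2.82 for Nr4a2, against 3.06, 2.85, 3.03 and 6.98 over single cells. Nr4a3 was the Nr4a gene with a count in every pool at 42.4 CPM or more, whereas Nr4a1 reached down to 1.41 CPM and Nr4a2 had a median of 0 CPM.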
